A study of Mus musculus with 3 samples.

Results

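Acinar cells of medium depth that carried an unusually high share of mitochondrial transcripts were examined in droplet single-cell RNA libraries of the adult mouse lacrimal gland (LG), the exocrine gland that secretes the aqueous part of tears. A cell barcode was taken when it had more than 200 genes and 2500 to fewer than 20000 UMIs (unique molecular identifiers, each standing for 1 captured transcript). At least 75% of its UMIs had to lie on tear-product genes and 5 to 15% on genes of the mitochondrial genome, with *Car6* under 5000 per 1000000 UMIs and at most 1 UMI of *Fcgbp*, *Sftpd*, *F5* and *Ccl9* together. The rule found 118 cells among 23058 called barcodes, and these are called mt-high acinar cells here. Measured values chose them, so their tear-product share, mitochondrial share, depth and levels of those named genes are given as a description without a test.

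Acinar cells make up the bulk of the LG and are built for protein export. They fill secretory granules with tear proteins such as secretoglobins and odorant binding proteins, and an extensive rough endoplasmic reticulum (ER) and many mitochondria supply the folding capacity and the ATP. The mitochondrial genome encodes a small set of respiratory chain and ATP synthase subunits, whereas the remaining subunits, all ribosomal proteins and all tear proteins are encoded in the nucleus. In single-cell libraries the share of mitochondrial transcripts is commonly used as a measure of cell quality.

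The 3 libraries of C57BL/6J mice aged 2 months were female replicate 1, male replicate 1 and male replicate 2, and in each 6 glands of 3 animals had been pooled. The labels name no allele or treatment, dead cells had been depleted from the suspensions, and the female library was prepared on another day and sequenced at another core than both male libraries, so that sex, day and core cannot be told apart. The study profiled all LG cell types and compared the sexes; the comparison here lay within libraries, between mt-high acinar cells and other acinar cells of the same suspension. The libraries held 9737, 6422 and 6899 called barcodes with 63066640, 40609390 and 44661762 UMIs, in the order given above.

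Of the 118 mt-high acinar cells, 72 came from male replicate 1, 45 from male replicate 2 and 1 from female replicate 1. The 2 male libraries therefore carry nearly all values below, and the single female cell had 4071 UMIs, of which 716 lay outside the genes that the selection used. For comparison, 2 groups of acinar cells were formed. The mt-low acinar cells met the same limits except that their mitochondrial share was under 5%, and they numbered 73, 441 and 1063 in the female and both male libraries. Of these, 59, 80 and 701 had a mitochondrial share under 1%, and their levels of markers of other cell types are given below. The RNA-rich acinar cells had at least 20000 UMIs and a mitochondrial share under 15%, and they numbered 279, 491 and 633. They also met the same limits on tear-product share, *Car6* and the other named genes, so the selection set their tear-product share too. Before the limit of 1 UMI on *Fcgbp*, *Sftpd*, *F5* and *Ccl9*, which is stricter at this depth, they numbered 287, 519 and 675. Among acinar cells of medium depth, mt-high cells made up 1.35% in the female library (exact 95% binomial interval 0.0342 to 7.30%), 14.0% in male replicate 1 (11.1 to 17.3%) and 4.06% in male replicate 2 (2.98 to 5.40%). The share thus differed between the male libraries by more than their counting error, although both carry the same label. The mt-low cells with a mitochondrial share under 1%, 80 and 701 in the male libraries, enter these shares. At 1 to under 5% the male libraries held nearly equal numbers of mt-low cells, 361 and 362, beside 72 and 45 mt-high cells. The difference in share between the male libraries therefore depends largely on the cells under 1%, and it was not tested without them.

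The limits of the selection did not fall into a gap. With the other limits kept, 35 cells had a tear-product share of 75 to 76% and 34 cells had 74 to under 75%, and 30 cells had a mitochondrial share of 5 to under 5.5% against 34 cells at 4.5 to under 5%. Only 2 mt-high acinar cells exceeded a mitochondrial share of 10%, and no cell above 15% reached the tear-product limit. A further 672 cells with the same mitochondrial share had a tear-product share of 60 to under 75%, of which 48 were in the female library. Of all 1438 barcodes of medium depth with a mitochondrial share of 5 to 15%, the tear-product limit kept the 118, and the limits on *Car6* and on the 4 further genes then removed none. The scatter of the 2 shares shows the mt-high acinar cells at the high-tear end of a continuous band.

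**Figure D1:**
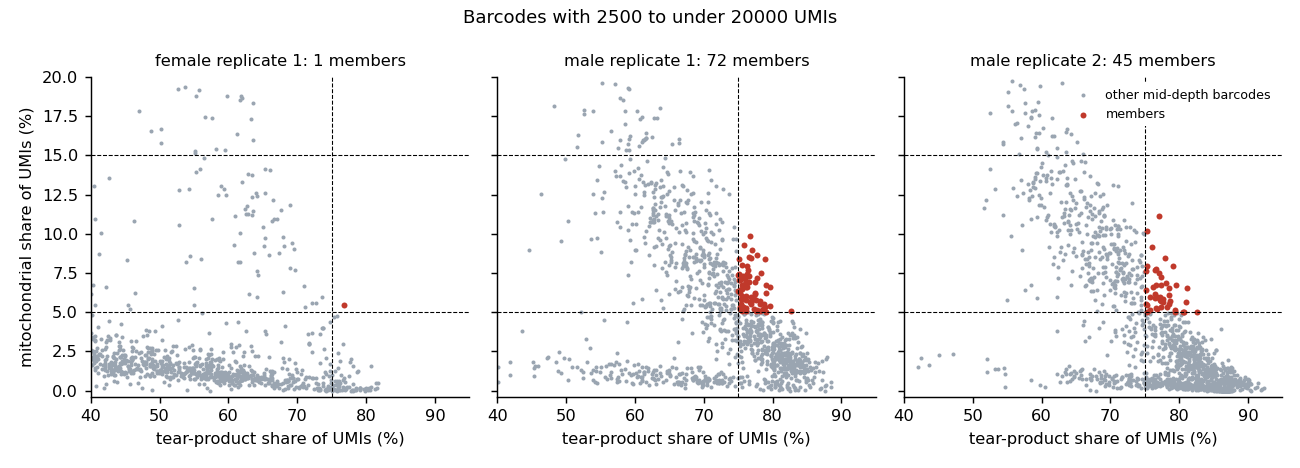
Tear-product share (x axis, % of a barcode's UMIs) against mitochondrial share (y axis, %) for barcodes with 2500 to under 20000 UMIs, 1 panel per library. Axes are limited to 40 to 95% and to 20%, dashed lines mark the limits of 75, 5 and 15%, and red points are the mt-high acinar cells: 1 in female replicate 1, 72 in male replicate 1 and 45 in male replicate 2.

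Medium depth in these cells meant a median of 5324.5 UMIs (lowest 2800, highest 13528) in male replicate 1 and 5392 UMIs (2638 to 9906) in male replicate 2, with medians of 489 and 484 genes. The median mitochondrial share was 6.37% (5.01 to 9.84%) and 5.98% (5.00 to 11.1%), and the median tear-product share was 76.3% (75.01 to 82.7%) and 77.2% (75.1 to 82.6%). When every cell was thinned to 2500 UMIs, mt-high acinar cells still had a median of 288.5 and 277 genes, against 255 and 221 in mt-low and 196 and 187 in RNA-rich acinar cells. The 26 and 6 male cells of medium depth with at least 20 UMIs of fibroblast markers and a tear-product share under 60% had 720 and 693.5. In both male libraries mt-high cells thus had more genes per UMI than either comparison group, while the female cell had 149 genes against a median of 221 in its mt-low cells. A doublet caller (scrublet) marked 0 of the 118, 193 of the mt-low and 52 of the RNA-rich acinar cells. Libraries shared 12 to 18 called barcodes per pair, and 2 of the 118 barcodes were also called in another library.

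Free RNA has to be read beside these shares. In barcodes of 10 to 100 UMIs that had not been called as cells, tear-product genes held 79.0% and 79.1% of UMIs in the male libraries and mitochondrial genes 1.45% and 1.55%. Summed over mt-high acinar cells, tear-product genes held 76.7% and 77.5% and mitochondrial genes 6.42% and 6.29%. The tear-product share of mt-high cells was therefore slightly below that of free RNA, whereas their mitochondrial share was above it. In mt-low acinar cells tear-product genes held 81.2% and 83.7%, and in RNA-rich acinar cells 85.5% and 86.2%. How far free RNA contributed to the tear transcripts of these cells was not tested.

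The acinar identity was examined with 4 markers. *Lpo*, the secreted peroxidase lactoperoxidase, is itself a tear-product gene of the selection and is therefore described only. It stood at 1314 and 1167 per 1000000 UMIs in mt-high cells of the male libraries, at 935 and 586 in mt-low cells and at 418 and 409 in RNA-rich cells, and the female mt-high cell held 1 UMI. *Pigr*, the receptor that carries polymeric immunoglobulin across the epithelium, stood at 943 and 608 CPM, which here and below are counts per 1000000 UMIs outside the selection genes of a group of cells. *Qsox1*, which oxidises thiols of secreted proteins, stood at 1533 and 1823, and *Prom2*, a pentaspan protein of membrane protrusions, at 1032 and 1264. The female cell held 1 UMI of *Pigr* and none of *Qsox1* or *Prom2*. The 3 markers that the selection did not use were thus present in both male libraries, whereas in the female cell the label rests on 1 UMI of *Pigr*.

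For a comparison with another cell type, cells thinned to 2500 UMIs were scored for at least 1 UMI. Fibroblast-marked cells were limited to a tear-product share under 60%, so they held less acinar RNA by their selection. The comparison therefore does not measure the part of free RNA. *Pigr* was found in 34.7% of mt-high cells of male replicate 1 (exact 95% binomial interval 23.9 to 46.9%) and in 17.8% of those of male replicate 2, against 3.85% and 0% of cells with fibroblast markers. *Prom2* was found in 37.5% and 37.8%, against 7.69% and 16.7%. *Qsox1* was found in 40.3% and 48.9%, against 23.1% and 0%. The fibroblast-marked cells had median depths of 2742.5 and 2710 UMIs before thinning and numbered only 26 and 6, so that 0 of 6 cells allows a share of up to 45.9% (exact 95% binomial interval). In each male library the share was higher in mt-high acinar cells for these 3 markers, without a test.

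The mitochondrial transcripts that set these cells apart kept nearly the same make-up as in other acinar cells. Of mitochondrial UMIs in mt-high cells of male replicates 1 and 2, *mt-Co3*, a cytochrome c oxidase subunit, took 21.8% and 20.3%, against 20.0% and 18.6% in mt-low cells. *mt-Atp6*, an ATP synthase subunit, took 20.22% and 21.03%, against 20.15% and 20.48%. *mt-Cytb*, the complex III cytochrome, took 15.5% and 14.3%, and *mt-Co2* took 14.5% and 14.7%. Among the abundant mitochondrial genes, *mt-Co1* differed most visibly, at 10.8% and 12.5% in mt-high, 13.0% and 15.0% in mt-low and 13.6% and 15.8% in RNA-rich acinar cells. The female mt-high cell followed a like order, with 22.9% for *mt-Co3*, 22.4% for *mt-Atp6* and 6.73% for *mt-Co1*.

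Among tear products some genes took a larger and some a smaller part than in mt-low cells. Of tear-product UMIs in the male mt-high cells, *Mucl2*, a mucin-like product, took 14.5% and 15.4% (12.6% and 13.4% in mt-low cells), *Scgb2b2* 14.6% and 14.6% (13.0% and 13.0%), and *Scgb1b2* 11.5% and 11.4% (10.5% and 10.8%). *Obp1a*, an odorant binding protein, took 11.5% and 12.0% (13.6% and 13.2%), and *Esp15* took 0.628% and 0.560% (0.831% and 0.802%). *Gm1553* took 12.1% and 14.5%, against 15.7% and 17.4% in mt-low and 18.1% and 17.1% in RNA-rich acinar cells. In the female library *Gm1553* took 5.66% in the mt-high cell and 10.0% in RNA-rich cells. The female cell also had the female proportions of the 2 leading genes, with 29.8% for *Mucl2* and 18.7% for *Obp1a*, against 28.4% and 19.9% in female mt-low cells.

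A set of 3 genes without a tear-product symbol took a large part of the UMIs outside the selection. *Gm5938* (chrX:78125467-78130403, GRCm38) and *Gm14743* (chrX:78240462-78245921) lie in the odorant binding protein cluster next to *Obp1a* (chrX:78085505-78091374) and *Obp1b* (chrX:78186777-78192292), and *Gm14135* is a long noncoding RNA gene of chromosome 2. Together they held 22.9% and 25.2% of those UMIs in the male mt-high cells, 30.4% and 32.3% in mt-low and 37.5% and 37.5% in RNA-rich acinar cells. In the female library the shares were 61.6% in the single mt-high cell, 57.0% and 63.3%. Had these 3 genes been counted as tear products, the same limits would have held 313 cells, of which 23 were female. Reads of *Gm5938* and *Gm14743* cannot be separated with certainty from those of the neighbouring, similar *Obp1* genes.

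Genes outside the selection were compared between mt-high and mt-low acinar cells by summing UMIs per library and group, with the library as a block. Genes of messenger RNA (mRNA) splicing, led by *Snrnp70*, were among those called higher in mt-high cells, and 5 ribosomal protein genes were among those called lower. Of 1185 genes tested, 16 were higher and 20 lower (edgeR quasi-likelihood test, adjusted p under 0.05), which is 3.04% of all genes tested, 1.35% higher and 1.69% lower. Leaving out any 1 library removed nearly all of these calls. Without the female library 0 of 3912 genes were called higher and 1 lower (0.0256%), with 457 at an unadjusted p under 0.05, and all 36 genes kept their sign but none of them was called. Without male replicate 1 there were 0 higher and 1 lower (*Apoe*) of 734 (0.136%), and without male replicate 2 there were 0 and 0 of 986, with 56 at an unadjusted p under 0.05. When UMIs of mt-low cells were thinned to the number in mt-high cells of the same library, 29 genes were higher and 36 lower of 634 in the 2 male libraries alone (4.57% and 5.68%), and of 20 of the 36 genes that could be tested there, all 20 kept their sign and 16 were called. The median log2 fold change of all genes was -0.03, 0.27 without TMM scaling and 0.24 with DESeq2, and calls without TMM scaling were 163 higher (13.8%) and 34 lower (2.87%), and with DESeq2 10 higher (0.844%) and 0 lower (0%).

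The smallest adjusted p among the higher genes was that of *Snrnp70*, the U1 small nuclear ribonucleoprotein that recognises the 5′ splice site. *Snrnp70* stood at 413 and 389 CPM in mt-high cells of the male libraries, at 128 and 119 in mt-low cells and at 58.3 and 62.3 in RNA-rich cells, and the female mt-high cell held none. Its log2 fold change against mt-low cells was 1.41 ± 0.28 (SE, 3 libraries, edgeR adjusted p = 0.000102). *Luc7l2*, another U1-associated protein, stood at 427 and 559 against 236 and 146, a log2 fold change of 1.04 ± 0.29 (adjusted p = 0.0197). *Gm26917*, a noncoding RNA gene (chr17:39843013-39846341), lies next to *Gm42418*, whose locus holds ribosomal RNA sequence. The part of ribosomal RNA in its counts was not tested. *Gm26917* stood at 398 and 365 against 147 and 98.1, a log2 fold change of 1.30 ± 0.28 (edgeR adjusted p = 0.000753). Without the female library these 3 adjusted p-values were 0.137, 0.234 and 0.160, and in male libraries of equal UMIs 0.0155, 0.00203 and 0.00220.

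*Snrnp70*, *Luc7l2* and *Gm26917* belong to a list of 21 nuclear-retained RNAs and splicing genes, of which 16 could be tested. Of these, 3 were higher and 0 lower, 15 had a positive log2 fold change, and the median was 0.55 beside -0.03 over all genes. At equal UMIs in the male libraries 5 of 13 were higher and 0 lower, with a median of 0.77, and *Malat1* and *Gm42418* joined the 3 genes. *Malat1*, an abundant noncoding RNA of nuclear speckles, held 2.35% and 1.43% of UMIs outside the selection in male mt-high cells, 1.72% and 0.634% in mt-low cells, 0.350% and 0.245% in RNA-rich cells and 1.13% and 1.05% in free RNA. Its log2 fold change against mt-low cells was 0.23 ± 0.40 with all libraries (adjusted p = 0.805) and 0.64 ± 0.11 at equal UMIs in the male libraries (adjusted p = 4.88e-06). Summed over the list, the share of UMIs was 3.42% and 2.75% in mt-high, 2.44% and 1.30% in mt-low and 0.611% and 0.514% in RNA-rich acinar cells, and 2.54% and 2.61% in free RNA. In mt-low cells with a mitochondrial share of 4 to 5% the list held 4.09% and 3.04%, and *Malat1* alone 3.04% and 1.88%. A high share of this list was therefore not particular to mt-high cells. The study also describes a main acinar cluster with a relatively high proportion of mitochondrial genes, which it labeled secreting acinar cells. It reports *Malat1*, *Lpo*, *Pigr* and *Qsox1* as higher there than in its synthesizing acinar cells. How many mt-high cells belong to that cluster was not tested. The study lists *Snrnp70*, *Luc7l2*, *Gm26917* and *Malat1* among the genes of high level in its *Tfrc*-high acinar cells. *Tfrc* encodes the transferrin receptor, and the selection set no limit on it. The gene list was chosen with earlier results of these data known, so its counts are not independent of those results. How many mt-high cells were *Tfrc*-high acinar cells was not tested.

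The other 13 genes called higher are named after their values were seen. *Sf3b2*, a component of the splicing factor SF3b, and *Arglu1* and *Rsrp1*, 2 arginine-rich nuclear proteins, also act on RNA. *Arglu1* stood at 383 and 340 CPM in male mt-high and 174 and 110 in mt-low cells. *Rsrp1* stood at 472 and 292 against 212 and 118, and *Sf3b2* at 236 and 243 against 101 and 60.0. *Cenpb*, a centromere-binding protein, stood at 280 and 389 against 123 and 96.0, and *Lars2*, the leucyl-tRNA synthetase of mitochondria, at 693 and 632 against 292 and 258. All these values were higher in mt-high cells in both male libraries, and the female mt-high cell had 0 UMIs of each of the 16 genes. *Ddi2*, *Tnk2*, *Ralgds*, *Zcchc7*, *Purb*, *Dtnb*, *Mxd4* and *Preb* completed the set, at log2 fold changes between those of *Lars2* (0.91) and *Ddi2* (1.54).

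Of all lists examined, ribosomal proteins held the most genes called lower. Of 84 genes in the list, 80 could be tested, 0 were higher and 5 lower (*Rpl12*, *Rpl27*, *Rpl35*, *Rpl39* and *Rps12*), and 1 of the 80 had a positive log2 fold change, with a median of -0.65 beside -0.03 over all genes. *Rpl35* stood at 457 and 389 CPM in male mt-high and 708 and 943 in mt-low cells (log2 fold change -1.20 ± 0.32; edgeR adjusted p = 0.0167). *Rps12* stood at 1105 and 1313 against 1758 and 2231 (-1.06 ± 0.31; adjusted p = 0.0252), and *Rpl12* at 722 and 875 against 1371 and 1437 (-1.16 ± 0.31; adjusted p = 0.0167). The female mt-high cell held no UMI of these 3 genes. None of the 5 was called without the female library, whereas 23 of 80 were lower at equal UMIs in the male libraries, with a median of -0.47.

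Summed over the list, ribosomal proteins held 10.4% and 12.2% of UMIs outside the selection in male mt-high cells, 12.2% and 14.9% in mt-low cells, 14.9% and 15.2% in RNA-rich cells and 16.8% and 16.5% in free RNA. Single mt-high cells ranged from 7.14 to 18.5% (median 10.8%) in male replicate 1 and from 7.23 to 19.9% (median 12.4%) in male replicate 2, which spans the sums of all groups. Against only those mt-low cells with a mitochondrial share of 1 to under 5%, whose sums were 11.3% and 11.7%, 1 of 80 genes was lower and 0 higher, beside 0.48% lower and 0.8% higher of all genes tested, and the median was -0.26. In male replicate 2 the mt-high sum of 12.2% was not below 11.7%, so the difference was smaller against these cells than against mt-low cells as a whole.

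Promoter starts of the 5 ribosomal protein genes are shown because mRNAs of such genes typically begin with a run of pyrimidines. Each window holds 30 bases of RefSeq (GRCm38.p6) sequence from 10 bases before the annotated start, 5′ to 3′ on the strand of the gene, with the motif CTTT in capitals. The windows lie at chr2:32961702-32961731 (plus strand) for *Rpl12*, chr11:101442235-101442264 (plus) for *Rpl27*, chr2:39005112-39005141 (minus) for *Rpl35*, chrX:37085203-37085232 (minus) for *Rpl39* and chr10:23787190-23787219 (minus) for *Rps12*.
Rpl12: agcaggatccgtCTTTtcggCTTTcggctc
Rpl27: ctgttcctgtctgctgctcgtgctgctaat
Rpl35: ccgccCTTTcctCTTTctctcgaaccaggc
Rpl39: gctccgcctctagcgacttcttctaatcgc
Rps12: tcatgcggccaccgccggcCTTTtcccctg
CTTT was present on the gene strand in 3 of these windows, in 18 of 71 promoters (25.4%) of the 60 ribosomal protein genes tested that RefSeq promoters matched, in 0 of 17 promoters of the nuclear-retained and splicing genes tested and in 11.6% of all 32851 promoters. Counted on either strand, with AAAG as its complement, the shares were 31.0%, 5.88% and 21.8%. Overlapping windows of 1 gene were counted separately, and a match describes the letters only.

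**Figure D2:**
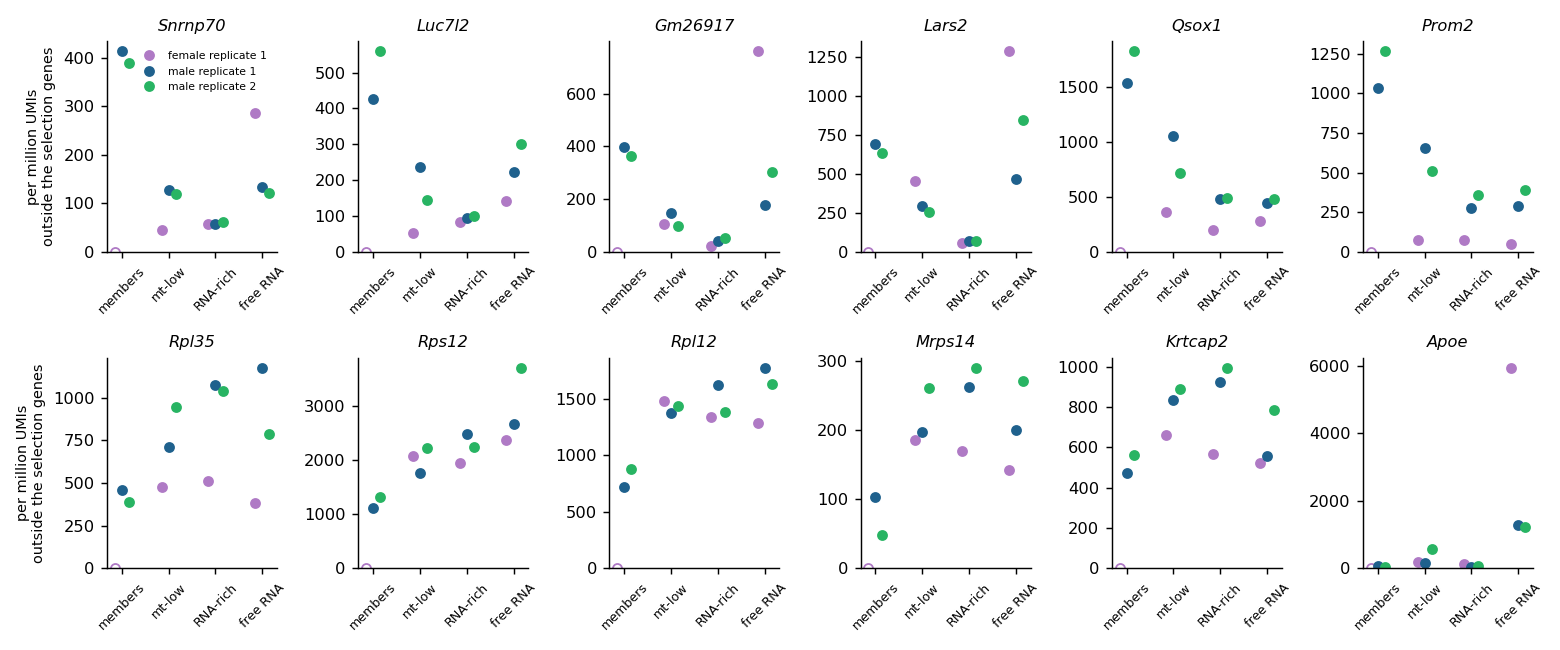
Level of 12 genes (y axis, CPM) in mt-high acinar cells (members), mt-low and RNA-rich acinar cells and free RNA, 1 point per library. An open point is the single female mt-high cell. In the male libraries *Snrnp70*, *Luc7l2*, *Gm26917* and *Lars2* were higher in mt-high than in mt-low cells and *Rpl35*, *Rps12*, *Rpl12*, *Mrps14* and *Krtcap2* lower, with *Snrnp70* at 413 and 389 against 128 and 119.

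The remaining lower genes included 2 that other cell types express strongly. *Apoe*, an apolipoprotein that was found in 65.4% and 83.3% of the male fibroblast-marked cells at 2500 UMIs, stood at 73.7 and 24.3 CPM in male mt-high and 159 and 559 in mt-low cells (log2 fold change -2.77 ± 0.52; edgeR adjusted p = 5.84e-05). *Cd74*, the invariant chain of MHC class II in antigen-presenting cells, stood at 88.4 and 0 against 139 and 496 (-2.57 ± 0.52; adjusted p = 0.000166). Free RNA held 1266 and 1207 CPM of *Apoe* and 1243 and 1116 of *Cd74*. *Mrps14*, a mitochondrial ribosomal protein encoded in the nucleus, stood at 103 and 48.6 against 196 and 260 (-1.73 ± 0.45; adjusted p = 0.0144), and *Krtcap2*, a subunit of the oligosaccharyltransferase complex, at 472 and 559 against 836 and 888. Neither *Apoe* nor *Cd74* could be tested at equal UMIs, and the part that RNA of other cell types has in them was not tested.

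Markers of 9 other cell types were nearly absent from mt-high acinar cells. Of 40 genes, 7 had a UMI, with 13 UMIs in all 118 cells, among them 6 of *Cd74*, 2 of *Col3a1* and 1 each of *C1qa*, *C1qb* and *Nkg7*. Duct, myoepithelial, endothelial, mural and erythroid markers were at 0. The summed level was 177 and 24.3 CPM in the male libraries, against 623 and 1680 in mt-low, 140 and 223 in RNA-rich acinar cells and 3641 and 3318 in free RNA. Within mt-low cells the level was 326 and 340 at a mitochondrial share of 1 to under 5% and 2315 and 2641 below 1%. Of the markers of *Ltf*-positive epithelial cells, *Ltf* had 12 and *Pglyrp1* 3 UMIs in the 118 cells.

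No respiratory chain subunit encoded in the nucleus was called higher together with the mitochondrial transcripts. Each UMI of 87 nuclear genes of oxidative phosphorylation (OXPHOS) came with 22.2 and 21.5 mitochondrial UMIs in male mt-high cells, 7.32 and 3.33 in mt-low, 1.87 and 1.74 in RNA-rich acinar cells and 3.67 and 3.73 in free RNA, and these ratios follow from the selection. The nuclear genes, which the selection did not use, held 1.72% and 1.80% of UMIs outside the selection in male mt-high cells, 1.79% and 2.08% in mt-low and 2.13% and 2.16% in RNA-rich acinar cells. In mt-low cells with a mitochondrial share of 1 to under 5% they held 1.70% and 1.75%, so that mt-high cells were not below these. Of 71 tested against mt-low cells, 0 were higher and 0 lower, 10 had a positive log2 fold change, and the median was -0.48, or -0.39 over 45 genes at equal UMIs and -0.18 over 42 genes against the mt-low cells of 1 to under 5%. All 11 nuclear genes of complex IV tested had a negative log2 fold change, with a median of -0.75. Among them *Cox7c* stood at 265 and 316 CPM in male mt-high and 434 and 546 in mt-low cells (-1.05 ± 0.34; adjusted p = 0.0583) and *Cox8a* at 339 and 413 against 527 and 581 (-0.89 ± 0.33; adjusted p = 0.0986).

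The other lists gave at most 1 call each against mt-low cells, which were *Apoe*, *Cd74* and *Kdelr1*, a receptor that returns escaped ER proteins, all lower. In the list of 28 genes of ER translocation and glycosylation 0 were called (median -0.13), in ER folding 0 of 18 (median -0.01), and in the unfolded protein response and ER degradation 0 of 13 (median 0.06). *Hspa5*, the ER chaperone BiP, stood at 1489 and 1556 CPM in male mt-high and 1672 and 1118 in mt-low cells. Of immediate early and dissociation genes 0 of 14 were called (median -0.10), of heat shock genes 0 of 7 (median -0.12), of translation factors 0 of 21 (median -0.26), of redox defence genes 0 of 10 (median -0.49), of mitochondrial import genes 0 of 9 and of mitochondrial stress genes 0 of 6. Genes of mitochondrial genome expression were too rare to be tested, and only 2 of 23 apoptosis genes could be. A missing call at this depth does not show that the groups were alike.

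In the fit of 3 libraries at full depth with TMM scaling, no acinar marker or regulator passed the test against mt-low cells, but some did under other settings. *Prom2* stood at 658 and 511 CPM in mt-low cells of the male libraries, lower than in mt-high cells (log2 fold change 0.67 ± 0.26; adjusted p = 0.108), and *Qsox1* at 1054 and 715 (0.61 ± 0.26; adjusted p = 0.147). *Bhlha15*, the MIST1 factor of secretory cell maturation, stood at 678 and 681 in mt-high and 411 and 356 in mt-low cells (0.52 ± 0.27; adjusted p = 0.242). *Aqp5*, the apical water channel, stood at 958 and 851 against 828 and 525, and *Pigr* at 777 and 505 in mt-low cells, with log2 fold changes of 0.11 ± 0.28 and -0.02 ± 0.29. Of these 5 genes 4 were positive, with a median of 0.52. At equal UMIs in the male libraries *Prom2* (adjusted p = 0.0387) and *Bhlha15* (adjusted p = 0.00663) were called higher, as was *Etv1*. With all 3 libraries the same 3 genes were called higher at equal UMIs, and *Qsox1*, *Prom2*, *Bhlha15*, *Ehf*, *Pax6* and *Etv1* without TMM scaling. *Etv1* and *Neat1*, further markers of the *Tfrc*-high acinar cells, had log2 fold changes of 0.74 ± 0.29 and 0.67 ± 0.27 with adjusted p-values of 0.123 and 0.123 at full depth.

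Across the whole range of mitochondrial shares the lists did not follow 1 slope. Among male acinar cells of medium depth with less than 0.25% mitochondrial UMIs, ribosomal proteins held 18.9% and 18.1% of UMIs outside the selection. They held 10.1% and 11.6% in mt-high cells with 5 to 7%, and 11.3% and 15.0% in the 23 and 11 cells with 7 to 15%. Nuclear-retained RNAs and splicing genes went from 1.43% and 0.826% to 4.09% and 3.04% in mt-low cells with 4 to 5%. They held 3.47% and 2.47% in mt-high cells with 5 to 7%, and then 3.29% and 4.03%. Just above the limit of 5% their share was thus lower than just below it in both male libraries. ER folding genes went from 0.655% and 0.714% to 1.41% and 1.40%, and then to 1.07% and 1.11%. Ribosomal proteins had already reached 10.99% and 10.8% at a mitochondrial share of 2 to 3%, and above that the 2 male libraries differed, with the values of male replicate 2 higher again in mt-high cells. Median depth ran from 4092 and 7262.5 UMIs in the lowest class through 12882 and 12820 at 1 to 2% to 4397 and 4470 in the highest, and its part in these shares was not tested.

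**Figure D3:**
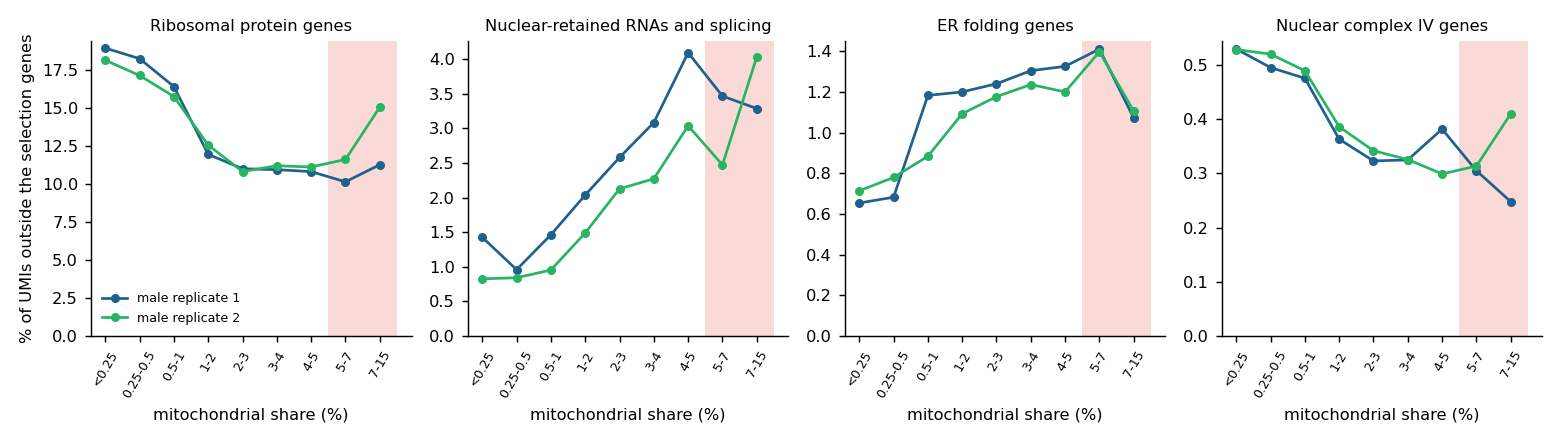
Share of UMIs outside the selection genes (y axis, %) held by 4 gene lists in male acinar cells of medium depth grouped by mitochondrial share (x axis, %), 1 line per library; the shaded classes are the mt-high acinar cells. Ribosomal proteins went from 18.9% and 18.1% to 10.1% and 11.6% at 5 to 7%, and the last class holds only 23 and 11 cells.

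RNA-rich acinar cells stood further away. Against them 126 of 7089 genes were higher and 658 lower in mt-high cells (1.78% and 9.28%, together 11.1%; edgeR quasi-likelihood test, adjusted p under 0.05), and 72 and 599 of 6972 without the female library (1.03% and 8.59%). Here the scaling decided the split. The median log2 fold change of all genes was -0.30, and it was 0.71 without TMM scaling, with 925 higher (13%) and 82 lower (1.16%), and 0.92 with DESeq2, with 160 higher (2.26%) and 18 lower (0.254%). At equal UMIs in the 2 male libraries, where the median was 0.03, 125 of 616 genes were higher (20.3%) and 117 lower (19%). Of the 658 genes called lower 581 kept their sign without TMM scaling. Male replicate 1 carried many of the calls, since 5 higher and 3 lower of 5971 were left without it (0.0837% and 0.0502%), and 50 and 59 of 6180 without male replicate 2 (0.809% and 0.955%).

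Of the 4 genes that the naming rule gave as higher than in RNA-rich cells, 2 lie in a locus of chromosome 17 that holds ribosomal RNA sequence. *Gm42418* (chr17:39846958-39848788) stood at 5630 and 8412 CPM in male mt-high, 1164 and 1231 in RNA-rich cells and 11456 and 13002 in free RNA, with 19553 in the female mt-high cell against 1038 (log2 fold change 1.53 ± 0.23; adjusted p = 6.67e-09). *AY036118*, which lies within it on the opposite strand, stood at 545 and 292 against 68.1 and 65.4 (1.81 ± 0.25; adjusted p = 1.36e-10), and reads of overlapping genes may be shared between them. *Bckdha*, a subunit of branched-chain ketoacid dehydrogenase, stood at 442 and 243 against 104 and 117 (0.75 ± 0.26; adjusted p = 0.0401), and *Dmxl1*, a partner of the proton pump, at 103 and 72.9 against 15.0 and 18.2. *Lars2* stood at 70.2 and 70.7 in RNA-rich cells and *Snrnp70* at 58.3 and 62.3, with log2 fold changes of 2.20 ± 0.23 and 1.71 ± 0.26. *Lars2* also stood at 466 and 845 in free RNA.

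Nuclear-retained RNAs and splicing genes were higher than in RNA-rich cells in 7 of 21 and lower in 0, with a median of 0.76 beside -0.30 over all genes. The 7 were *Malat1*, *Neat1*, *Nktr*, *Luc7l2*, *Snrnp70*, *Gm26917* and *Gm42418*, of which *Malat1* had a log2 fold change of -0.041 without male replicate 1. Without TMM scaling 17 were higher, with DESeq2 11, and at equal UMIs 10 of 13, and none was lower in any of these. *Neat1*, the paraspeckle RNA, stood at 870 and 681 CPM in male mt-high and 174 and 181 in RNA-rich cells (log2 fold change 1.12 ± 0.22; adjusted p = 1.27e-05). Of the acinar markers, *Prom2* (0.84 ± 0.20; adjusted p = 0.000795) and *Qsox1* (0.74 ± 0.20; adjusted p = 0.00368) were higher. *Prom2* stood at 278 and 356 and *Qsox1* at 481 and 491 CPM in RNA-rich cells.

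Ribosomal protein genes were lower than in RNA-rich cells in 78 of 81 and higher in 0, with a median of -1.58, which is -1.28 relative to all genes. With DESeq2 3 were lower (median -0.78), without TMM scaling 40 were lower and 2 higher, and at equal UMIs 57 of 80 were lower and 1 higher (median -0.76). *Rpl35* stood at 1076 and 1037 CPM in RNA-rich cells and *Rps12* at 2473 and 2241. Nuclear OXPHOS genes were lower in 60 of 79 and higher in 0 (median -1.38). Leaving out male replicate 1 gave 0 of 79 lower (median -1.33), and leaving out male replicate 2 gave 8 (median -1.30). With DESeq2 2 were lower, without TMM scaling 9 were lower and 4 higher (median -0.37), and at equal UMIs 15 of 46 were lower and 2 higher. Over all genes tested 9.28% were lower at full depth with TMM scaling, 0.254% with DESeq2, 1.16% without TMM scaling and 19% at equal UMIs. *Atp5e*, an ATP synthase subunit, stood at 177 and 267 in male mt-high and 548 and 585 in RNA-rich cells (-2.42 ± 0.31; adjusted p = 5.46e-12), and *Romo1*, a small protein of the inner mitochondrial membrane, at 103 and 48.6 against 240 and 242 (-2.56 ± 0.38; adjusted p = 5.31e-09). Both remained lower at equal UMIs, with log2 fold changes of -1.84 ± 0.36 and -2.14 ± 0.50.

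The direction of the ER folding list turned with the scaling. Of 23 ER folding genes 1 was higher (*Qsox1*) and 5 lower (*Pdia3*, *Calr*, *Ppib*, *Manf* and *Hsp90b1*), with a median of -0.60. Without TMM scaling the median was 0.42 and with DESeq2 0.25, and at equal UMIs 4 of 16 were higher (*Qsox1*, *P4hb*, *Pdia6* and *Txndc5*) and 0 lower. *Calr*, the chaperone calreticulin, stood at 1312 and 1313 CPM in male mt-high and 1125 and 1125 in RNA-rich cells. No direction is therefore given for ER folding against RNA-rich cells. ER folding genes together held 1.33% and 1.35% of UMIs outside the selection in male mt-high, 0.894% and 0.865% in RNA-rich acinar cells and 0.750% and 0.787% in free RNA. In the same comparison *Edem3*, which trims glycans of misfolded proteins, was higher in both fits (0.84 ± 0.25 and 2.22 ± 0.46; adjusted p = 0.0107 and 3.12e-05).

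**Figure D4:**
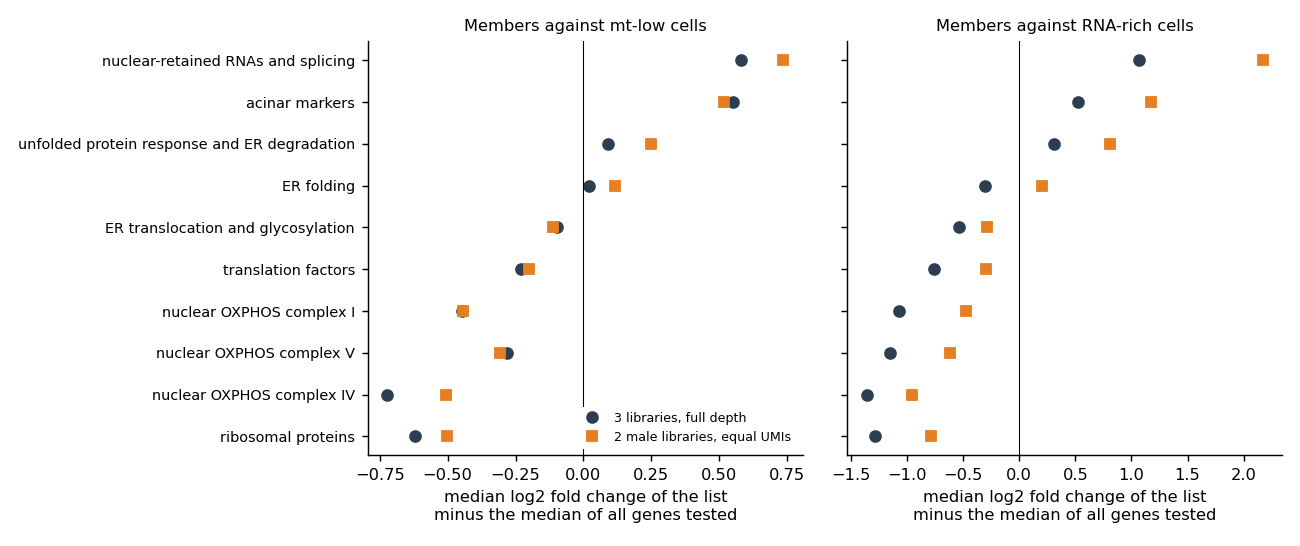
Median log2 fold change of 10 gene lists minus the median of all genes tested (x axis), for mt-high against mt-low acinar cells (left) and against RNA-rich acinar cells (right); circles are fits of 3 libraries at full depth and squares of 2 male libraries at equal UMIs. Nuclear-retained RNAs and splicing genes lie highest and ribosomal proteins and complex IV lowest in both panels, and ER folding lies on opposite sides of 0 in the right panel.

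Exonic length of the gene moved with the direction of the differences. It counts the bases of all annotated exons of a gene once and is not the length of a single transcript. When the 1185 genes tested against mt-low cells were divided into 4 equal parts by the exonic length of the gene (GENCODE M21, GRCm38), the median log2 fold change was -0.38 in the shortest (383 to 1927 bases), -0.09, 0.04 and 0.28 in the longest (5596 to 93092 bases). The calls followed, with 0 higher and 10 lower in the shortest and 12 higher and 1 lower in the longest. Against RNA-rich cells the medians were -0.85, -0.39, -0.11 and 0.18, with 387 of the 658 lower genes in the shortest part. At equal UMIs in the male libraries they were -0.24, -0.03, 0.08 and 0.33 against mt-low and -0.58, -0.03, 0.17 and 0.76 against RNA-rich cells. Ribosomal protein and nuclear OXPHOS genes are short, and the part of length in their values was not tested.

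**Figure D5:**
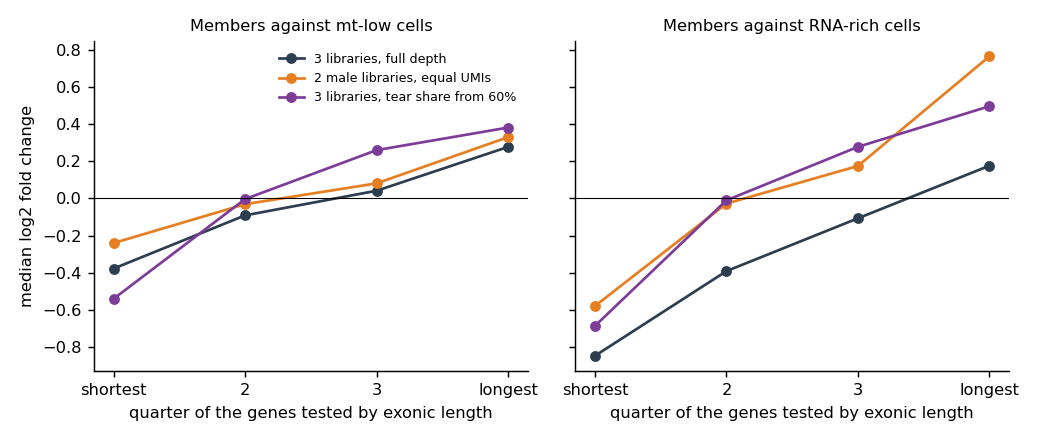
Median log2 fold change (y axis) in 4 parts of the genes tested, ordered by exonic length (x axis), for mt-high against mt-low (left) and RNA-rich acinar cells (right). The medians increase from the shortest to the longest part in each fit shown, from -0.38 to 0.28 against mt-low cells with 3 libraries at full depth.

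With the tear-product limit lowered to 60% in both groups, 790 mt-high cells took part, 49 of them female, and calls against mt-low cells were 793 higher and 1193 lower of 6281 (12.6% and 19%). Nuclear-retained RNAs and splicing genes were then higher in 13 of 21 and lower in 0. Ribosomal proteins were lower in 76 of 81 and higher in 0, and nuclear OXPHOS genes were lower in 62 of 79 and higher in 0. Markers of other cell types moved with these lists: fibroblast markers were lower in 4 of 4 (median log2 fold change -4.69), myoepithelial markers in 5 of 5 (-3.86), duct markers in 4 of 4 (-2.94), macrophage markers in 3 of 3 (-3.35) and dendritic markers in 2 of 2 (-3.48). Immediate early and dissociation genes were lower in 15 of 25 and higher in 1. The part of RNA from other cell types in the counts at this limit was not tested. All 36 genes called at the limit of 75% kept their sign, and 32 were called again. The 118 cells are part of the 790, so these counts are not independent of those above. In the 672 cells added, tear products held 65.5%, 68.6% and 68.5% of UMIs and mitochondrial genes 9.70%, 8.75% and 9.06% in female replicate 1, male replicate 1 and male replicate 2.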

How the data were processed

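The authors deposited gene-by-barcode matrices of UMI counts per library, not normalized, made with Cell Ranger 6.1.2 against mm10 per the labels. The annotation release was not given in the sources used here, and 32235 of 32285 features matched GENCODE M21 by gene ID. Both the called barcodes and all barcodes were used. Cells were selected as stated, and the members and gene lists were chosen with earlier results of these data known. UMI counts were summed per library and group over genes outside the selection and tested with edgeR 4.0.16 (filterByExpr, TMM, quasi-likelihood, library as a block because both groups come from 1 suspension) in R 4.3.3, with Benjamini-Hochberg adjustment at 0.05; DESeq2 1.42.0 was an alternative. The fits were also run on counts simulated with a single fixed dispersion. There both groups of a library had the same composition apart from genes changed by a known fold. That simulation cannot decide between the scalings. Thinning drew UMIs without replacement. Doublets were scored with scrublet (scanpy 1.11.5) and kept. Free RNA was the sum of uncalled barcodes with 10 to 100 UMIs. Intervals cover counting error only. With the library as a block, p-values weigh the difference between groups against its variation over libraries, including the counting error of the single female cell. Each library pools 3 animals, so the spread between animals is not measured.

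Named genes were to be called, of 1 sign in all 3 libraries and at 200 CPM or more in the higher group (12 highest and 12 lowest against mt-low cells, 6 and 6 against RNA-rich cells), plus up to 4 genes with the smallest p per list. No gene called higher against mt-low cells met this, since the female mt-high cell held none of them, and 13 of the 16 were named after their values were seen. Alternatives changed the scaling, tool, filter, block, library set, doublets, depth and selection limits.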

Additional observations from a re-analysis of the deposited data

Results flagged for a closer look

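ER folding genes had another sign in the single female mt-high cell than in the male libraries. Their summed share of UMIs outside the selection, mt-high minus mt-low acinar cells, was -0.306 percentage points in female replicate 1 and 0.119 and 0.415 percentage points in male replicates 1 and 2. The female value rests on 3 UMIs of 1 cell, where 5.19 would be expected at the share of the female mt-low cells. So few UMIs show no direction for the female library. Sex, day and core cannot be told apart here, and the difference was not tested.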

How the results depend on the processing

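Against mt-low acinar cells, where 16 genes were higher and 20 lower, calls were 163 and 34 without TMM scaling, 10 and 0 with DESeq2 (90 at an unadjusted p under 0.05), 1 and 171 without a filter, 4 and 5 without the library as a replicate block, 11 and 36 at matched depth, 2 and 38 without cells of 4 to 6% mitochondrial share and 4 and 95 at 6000 to under 20000 UMIs. Leaving out 1 library gave 0 higher each time and 0 to 1 lower. Of alternatives added after seeing the data, mt-low cells of 1 to under 5% gave 5 and 3, a tear-product share of 75 to under 80% gave 3 and 14, equal UMIs in the male libraries 29 and 36, a tear-product share from 60% 793 and 1193, and 3 further tear genes 109 and 358. The cause of these changes was not tested.

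Against RNA-rich cells, with 126 higher and 658 lower, calls were 925 and 82 without TMM scaling, 160 and 18 with DESeq2, 63 and 763 without a filter, 59 and 332 without the replicate block, 113 and 76 and, in male libraries only, 125 and 117 at equal UMIs, 1417 and 1952 from a tear-product share of 60%, and 307 and 1255 with 3 further tear genes. Leaving out 1 library gave 5 to 72 higher and 3 to 599 lower. A tear-product share from 85%, and RNA-rich cells of 5 to 15% mitochondrial share, left too few cells for a fit. Of 963 values of genes described in the text under alternatives, 260 lost their call, 36 gained one and 36 changed sign. Against RNA-rich cells 4 of the 5 ER folding genes called lower at full depth with TMM scaling changed sign. *Pdia3* was at 0.23 without TMM scaling, 0.073 with DESeq2, and 0.35 (3 libraries) and 0.20 (2 male libraries) at equal UMIs. *Calr* was at 0.23, 0.041, 0.28 and 0.13, and *Hsp90b1* at 0.24, 0.057, 0.26 and 0.20, in the same order. *Manf* was at 0.25 without TMM scaling and at 0.36 and 0.20 at equal UMIs. *Malat1*, called higher, was at -0.041 without male replicate 1, and leaving out 1 library gave -0.041 to 1.62. Against mt-low cells the genes that changed sign had not been called. *Pigr* was at 0.29 without TMM scaling, 0.21 with DESeq2, 0.15 at matched depth, 0.75 at 2500 to under 6000 UMIs, 0.078 and 0.039 at equal UMIs, 0.56 from a tear-product share of 60%, 0.10 with 3 further tear genes, and -0.077 to 0.067 when 1 library was left out. *Malat1* was at -0.50 with DESeq2, -0.18 without a filter, -0.23 against mt-low cells of 1 to under 5%, -0.32 at a tear-product share of 75 to under 80%, and -0.81 to 0.43 when 1 library was left out. *Aqp5* was at -0.32 without a filter, -0.34 without cells of 4 to 6% and -0.047 to 0.51 when 1 library was left out, and *Bhlha15* at -0.093 without cells of 4 to 6%. With 1 female cell and 109697 UMIs outside the selection in all 118 cells, genes of low level could not be tested, and smaller differences were not detectable at this depth.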
